A study of Mus musculus with 21 samples.

Results

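The genes described here are Trem2, Tyrobp, Apoe, Lpl, Cd68, Ctsd, Cst7, Spp1, Gpnmb and Itgax, 10 genes of the disease-associated programme of macrophages and microglia. They were taken by name as genes of that programme and are 10 of the 24062 genes in the count table. All 10 passed the filter on low counts, which left 15936 genes for testing.

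Trem2 is a surface receptor of macrophages and microglia that binds lipids, lipoproteins and cell debris, and it signals through the adaptor protein encoded by Tyrobp. In brains with amyloid plaques, microglia that engage Trem2 switch on genes for lipid transport, lysosomal digestion and secreted or surface proteins, and Apoe is both a ligand of the receptor and a gene of that programme. Related macrophages occur in fatty tissue, arterial plaques and tumours, and the colon holds many resident macrophages beneath its epithelium. Several of the genes are not restricted to macrophages: Apoe, Ctsd, Lpl and Spp1 are also made by epithelial, stromal or fat cells.

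The libraries are ribosome-depleted total RNA from colon of C57BL/6 mice, 21 in all, in 7 groups of 3. Wild-type (WT) males, WT females and males with the App NL-G-F knock-in (KI) each gave a normal-colon group and a colon tumour group, and KI females gave a normal-colon group only. The App NL-G-F allele is a mouse App gene with a humanised amyloid-beta segment and the Swedish, Arctic and Beyreuther/Iberian mutations of familial Alzheimer's disease, and it is expressed from its own locus in all tissues that use App. Tumours came from animals given AOM/DSS, a carcinogen, azoxymethane, given with dextran sulfate sodium, a salt that causes colitis. The normal libraries are labelled as untreated, whereas the series' design text speaks of normal tissue beside tumours or from colons without tumours, so the exposure of the normal samples cannot be settled here. Ages and whether each library is a separate animal are not given in the sources used here, so p-values measure the spread between these libraries. The design text asks what differs at the RNA level between colons of mice with and without the App mutations after AOM/DSS.

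Library totals ran from 3414123 counts (WT male tumour replicate 2) to 26174008 (WT female normal replicate 1). Epithelial markers, the defining genes of colon mucosa, summed to between 4558 and 8204 CPM (counts scaled to a common effective library size) over 7 genes in every library. The share of counts on the ribosomal precursor gene Rn45s ran from 2.84 to 3.18% in WT female normal colon and from 9.30 to 13.1% in WT male tumours, with the other 5 groups between 4.85 and 14.1%, WT female tumours among them at 7.96 to 9.998%. 2 of the KI female normal libraries carry the same name in the table and are called replicates a and b here. Differences below are log2 fold changes ± standard error from edgeR's quasi-likelihood test over all 21 libraries, and a gene is called where the Benjamini-Hochberg adjusted p over all tested genes is under 0.05. Groups said not to overlap are 3 libraries against 3. Non-overlap was not counted over all tested genes, so it is a description only.

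**Figure D1:**
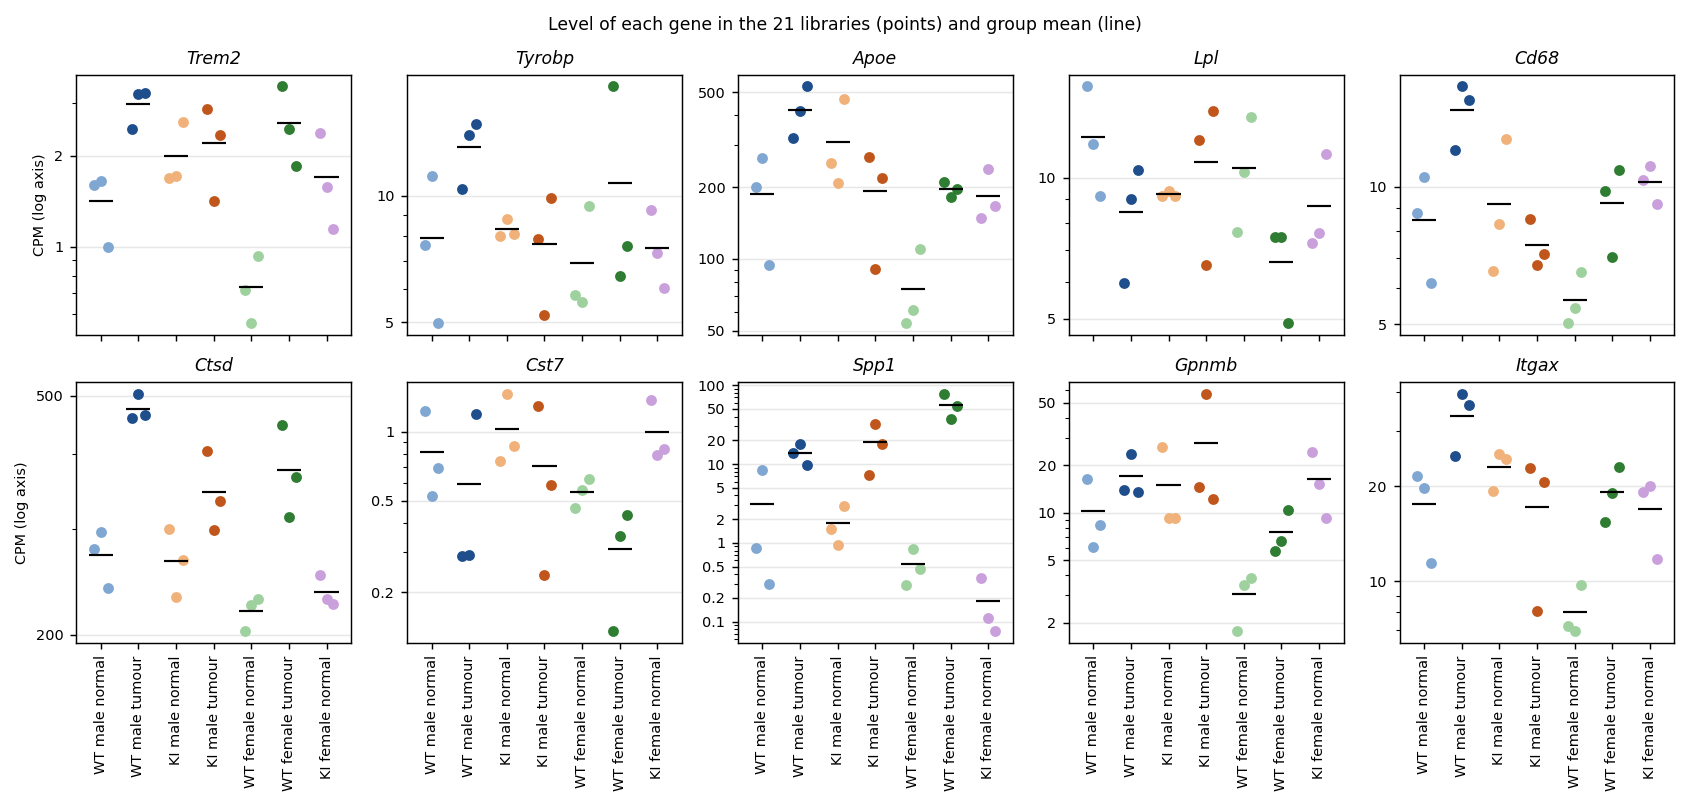
Level of each of the 10 genes in CPM (log axis) in the 21 libraries (points, 3 per group) with the group mean (line). WT female normal colon has the lowest mean for Trem2, Tyrobp, Apoe, Cd68, Ctsd, Gpnmb and Itgax, and WT male tumours have the highest mean for Trem2, Tyrobp, Apoe, Cd68, Ctsd and Itgax.

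Per kilobase of the longest coding transcript, Apoe and Ctsd were the most abundant of the 10 in WT male tumours, at 300.3 and 223.7 CPM per kb. Tyrobp, at 21.9, and Cd68, at 11.9 CPM per kb, followed, and Spp1 and Itgax had 9.11 and 8.29. Gpnmb had 4.60, Trem2 2.72, Lpl 2.06 and Cst7 0.601 CPM per kb. The receptor was thus measured far below its adaptor per unit length. Raw counts were small for the rarest genes, with 4 to 42 counts per library for Trem2 and 1 to 26 for Cst7, which limits what can be detected for them.

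The first comparison, tumour against normal colon in WT males, asked which genes of the programme differ in AOM/DSS tumours on the normal App background. Of the 10 genes, 6 rose in tumours and none fell: Trem2, Apoe, Cd68, Ctsd, Spp1 and Itgax. Among all tested genes 35.7% were called in this comparison in either direction. Limma voom called 8, Tyrobp as higher and Lpl as lower in addition, and called 7198 of all tested genes, against 5697 by edgeR. The median difference of the 10 genes was 0.79 on the log2 scale, beside 0.01 for all tested genes. The share of counts on Rn45s was 4.90 to 8.26% in normal colon and 9.30 to 13.1% in tumours, without overlap. Its part in the result was not tested. In bulk tissue, more cells of a type and more RNA per cell cannot be told apart.

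Trem2 measured 1.61, 1.65 and 0.995 CPM in the WT male normal libraries and 2.45, 3.20 and 3.22 CPM in the tumours. Every tumour library lay above every normal one, and the difference was 1.02 ± 0.37 (adjusted p = 0.0358, edgeR). Tyrobp, whose protein carries the signal inward, had 7.65, 11.2 and 4.97 CPM in normal colon and 10.4, 14.0 and 14.8 CPM in tumours. The Tyrobp groups overlapped, and its difference of 0.71 ± 0.36 did not pass the test (adjusted p = 0.133, edgeR).

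Apoe, the lipid carrier, had 201.1, 265.3 and 94.0 CPM in WT male normal colon and 321.4, 417.6 and 529.4 CPM in tumours. The tumours were all higher, by 1.18 ± 0.43 (adjusted p = 0.0428, edgeR). Lpl, the lipase that frees fatty acids from lipoproteins, went the other way in its estimate, −0.55 ± 0.30, with overlapping groups (adjusted p = 0.168, edgeR).

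Ctsd, a lysosomal aspartic protease, had the tightest values of the set. It measured 277.8, 297.1 and 239.6 CPM in WT male normal colon and 459.5, 503.8 and 463.9 CPM in tumours, a rise of 0.81 ± 0.14 (adjusted p = 0.000235, edgeR). Cd68, a lysosomal membrane glycoprotein used as a macrophage marker, rose by 0.78 ± 0.24 (adjusted p = 0.0192, edgeR), from 8.79, 10.5 and 6.17 CPM to 12.0, 16.6 and 15.5 CPM. Cst7, an inhibitor of lysosomal cysteine proteases, had 7 to 26 counts in normal libraries and 1 to 13 in tumours, too few to place its estimate of −0.39 ± 0.62.

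Itgax, the integrin alpha chain CD11c, rose by 0.91 ± 0.32 (adjusted p = 0.0354, edgeR), from 21.5, 19.8 and 11.4 CPM to 24.9, 39.3 and 36.4 CPM. Spp1, the secreted glycoprotein osteopontin, rose from 0.850, 8.31 and 0.298 CPM to 13.7, 17.8 and 9.76 CPM, by 2.10 ± 0.78 (adjusted p = 0.0467, edgeR). Its normal replicate 2 stood far above the other two normal libraries. Gpnmb, a membrane glycoprotein of lysosome-rich macrophages, had overlapping groups and a difference of 0.69 ± 0.60 (adjusted p = 0.398, edgeR).

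The calls in WT males rested on few libraries, apart from Ctsd, which was called with any 1 of the 6 libraries left out. Trem2 was called in none of those 6 fits, with adjusted p between 0.0515 and 0.140, though its difference stayed between 0.84 and 1.14. The number of genes called was 1 without normal replicate 3, tumour replicate 2 or tumour replicate 3, then 2 without normal replicate 1, 3 without tumour replicate 1 and 4 without normal replicate 2. The difference of Spp1 was 4.37 without that normal replicate 2.

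Tumour against normal colon in WT females gave the same 6 genes, Trem2, Apoe, Cd68, Ctsd, Spp1 and Itgax, as higher, and again none of the 10 fell. Among all tested genes 49.1% were called in either direction, and the median difference of the 10 was 1.03 beside 0.01 for all tested genes. The share of counts on Rn45s differed along with them, 2.84 to 3.18% in normal colon and 7.96 to 9.998% in tumours, and its part in the result was not tested. Trem2 measured 0.719, 0.557 and 0.929 CPM in normal colon and 3.396, 2.46 and 1.85 CPM in tumours, a rise of 1.79 ± 0.40 (adjusted p = 0.00116, edgeR). All 3 tumours lay above all 3 normal samples, and Trem2 was called with any 1 of the 6 libraries left out.

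Apoe had 53.7, 61.0 and 110.4 CPM in WT female normal colon and 210.8, 181.5 and 196.3 CPM in tumours, a rise of 1.39 ± 0.44 (adjusted p = 0.0146, edgeR). Ctsd rose by 0.78 ± 0.14 (adjusted p = 0.00013, edgeR), from 202.8, 223.7 and 229.5 CPM to 446.9, 313.8 and 366.6 CPM. Itgax rose by 1.28 ± 0.34 (adjusted p = 0.00466, edgeR), from 7.23, 6.97 and 9.76 CPM to 15.5, 19.1 and 23.1 CPM. In each of these genes the groups did not overlap.

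Spp1 had the widest difference of the set in WT females, 6.90 ± 1.03 (adjusted p = 4.9e-05, edgeR). It had 7, 6 and 3 counts in the normal libraries, which is 0.296, 0.836 and 0.464 CPM, against 569, 315 and 497 counts in tumours, which is 77.3, 36.8 and 54.0 CPM. The rise of Cd68, 0.72 ± 0.25 (adjusted p = 0.0255, edgeR), was the least secure, and it was called in 2 of the 6 fits with a library left out, those without normal replicate 3 and without tumour replicate 2. Apoe was called in 4 of those 6 fits, all but those without normal replicate 1 or 2. Libraries 152 to 154 by number are WT female tumour replicates 2 and 3 and KI male tumour replicate 3. With a term for them, Trem2, Ctsd and Spp1 stayed called in WT females, and Apoe, Cd68 and Itgax did not.

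The other 4 genes did not pass the test in WT females. Gpnmb had 1.78, 3.48 and 3.87 CPM in normal colon and 5.70, 6.67 and 10.4 CPM in tumours, groups that did not overlap (1.41 ± 0.68, adjusted p = 0.0960, edgeR). Lpl was lower in each tumour than in each normal library, with −0.65 ± 0.31 (adjusted p = 0.0888, edgeR). Without normal replicate 1, Lpl was called as lower. Tyrobp overlapped between the groups (0.64 ± 0.37, adjusted p = 0.157, edgeR), and Cst7 had 1, 3 and 4 counts in the 3 tumours.

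The windows around the start sites of Trem2, Cd68, Itgax and Ctsd are shown because these members were called as higher in both WT tumour comparisons and each has 1 promoter window in RefSeq (GRCm38.p6, the same coordinates as mm10). Each window holds 250 bases before the start site and 50 from it on. Capitals mark matches on either strand to the PU.1 core GAGGAA, to the AP-1 site TGANTCA and to the E-box CACGTG of the lysosomal regulators Tfeb and Mitf; PU.1 and AP-1 are factors of macrophage gene control.
Trem2 (chr17:48346151-48346450, plus strand): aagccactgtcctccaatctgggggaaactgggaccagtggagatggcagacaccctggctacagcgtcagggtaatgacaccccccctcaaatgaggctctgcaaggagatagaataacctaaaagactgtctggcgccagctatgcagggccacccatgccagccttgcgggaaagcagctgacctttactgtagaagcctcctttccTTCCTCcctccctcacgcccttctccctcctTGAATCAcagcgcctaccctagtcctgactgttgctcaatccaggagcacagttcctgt
Cd68 (chr11:69666121-69666420, minus strand): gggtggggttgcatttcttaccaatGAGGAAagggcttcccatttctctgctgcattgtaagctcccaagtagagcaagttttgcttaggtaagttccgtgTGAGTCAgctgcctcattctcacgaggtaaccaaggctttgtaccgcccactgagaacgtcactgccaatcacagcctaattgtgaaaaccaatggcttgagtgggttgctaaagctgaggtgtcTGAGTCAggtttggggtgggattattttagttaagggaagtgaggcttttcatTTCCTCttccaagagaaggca
Itgax (chr7:128129300-128129599, plus strand): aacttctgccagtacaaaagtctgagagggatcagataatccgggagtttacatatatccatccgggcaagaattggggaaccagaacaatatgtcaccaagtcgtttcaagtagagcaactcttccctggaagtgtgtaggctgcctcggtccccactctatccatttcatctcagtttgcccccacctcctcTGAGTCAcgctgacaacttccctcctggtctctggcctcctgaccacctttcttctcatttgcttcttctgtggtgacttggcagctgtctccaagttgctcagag
Ctsd (chr7:142387778-142388077, minus strand): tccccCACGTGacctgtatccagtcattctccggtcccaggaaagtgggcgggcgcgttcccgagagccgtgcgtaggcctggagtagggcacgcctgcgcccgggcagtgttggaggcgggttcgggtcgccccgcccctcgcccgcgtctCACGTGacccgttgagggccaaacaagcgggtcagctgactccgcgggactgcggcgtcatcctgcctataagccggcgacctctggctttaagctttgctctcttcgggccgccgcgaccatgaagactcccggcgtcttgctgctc

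Of the 10 genes, 8 have a promoter window in the RefSeq table, with 11 windows in all, and Tyrobp and Lpl have none there. The AP-1 letters occur in Trem2, Cd68, Itgax, Gpnmb and Cst7, which is 5 of 8 genes and 5 of their 11 windows, and in 7.8% of all 32851 windows of that length. In Trem2 and Cst7 the match begins 9 and 6 bases before the start site, and Cd68 has matches at 149 and 24 bases before it. The PU.1 core occurs in Trem2, Apoe, Cd68 and Spp1, which is 4 of 8 genes and 5 of their 11 windows, beside 28.3% of all windows. Ctsd alone among the 8 has the E-box, at 245 and 98 bases before its start site, which is 1 of the 11 windows, beside 7.2% of all windows. No match overlaps a match to another of the motifs in these windows, and a match of letters is not a measured binding site.

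In KI males, tumour against normal colon called 1 of the 10 genes, Spp1, as higher, and 20.4% of all tested genes were called in either direction. The median difference of the 10 genes was 0.01, the same as over all tested genes. Spp1 had 1.495, 0.950 and 2.94 CPM in KI male normal colon and 7.35, 32.5 and 17.9 CPM in tumours. It rose by 3.45 ± 0.83 (adjusted p = 0.0108, edgeR), with no overlap between the groups, and was called with any 1 of the 6 libraries left out.

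The remaining genes overlapped between normal colon and tumour in KI males. Apoe had 253.1, 208.6 and 470.7 CPM in normal colon and 266.9, 90.3 and 218.5 CPM in tumours (−0.70 ± 0.43, adjusted p = 0.253, edgeR). Trem2 had 1.68, 1.71 and 2.59 CPM in normal colon and 2.86, 1.42 and 2.35 CPM in tumours (0.14 ± 0.35, adjusted p = 0.802, edgeR). Ctsd was nearest to the threshold, with 300.3, 230.6 and 266.1 CPM in normal colon and 404.7, 298.7 and 333.8 CPM in tumours (0.38 ± 0.14, adjusted p = 0.0550, edgeR). DESeq2 called Ctsd as higher as well, so that the count was 2, with 3829 of all genes called, against 3246 by edgeR.

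KI male tumour replicate 2 stood apart within its group. It had 90.3 CPM of Apoe against 266.9 and 218.5, 8.04 CPM of Itgax against 22.9 and 20.7, and 57.0 CPM of Gpnmb against 14.6 and 12.2. The receptor, lipid and integrin genes were therefore lowest in the library in which Gpnmb and Spp1 were highest. Without it, Spp1 was still the only gene of the 10 called in KI male tumours against normal colon.

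**Figure D2:**
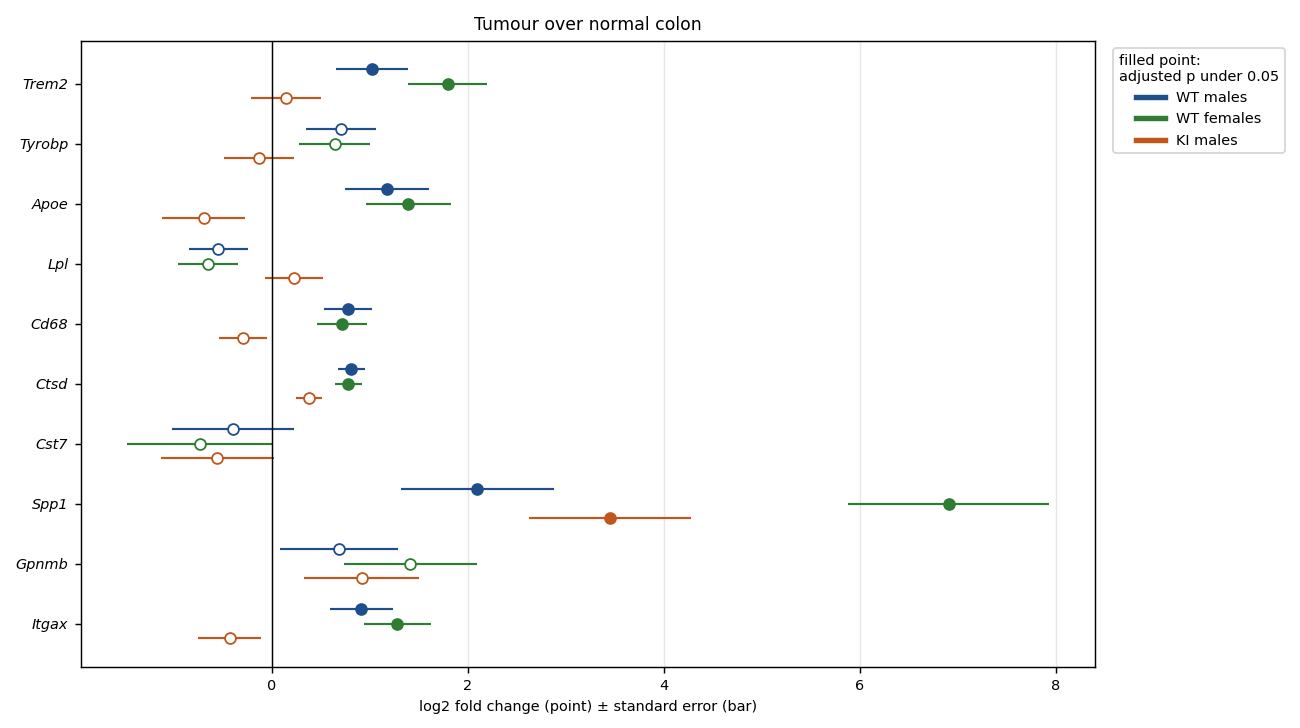
Difference of tumour over normal colon for the 10 genes (log2 fold change, point; standard error, bar) in WT males, WT females and KI males, each 3 libraries against 3; filled points have an adjusted p under 0.05. Trem2, Apoe, Cd68, Ctsd, Spp1 and Itgax are filled for both WT sexes, and Spp1 alone is filled for KI males.

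The test of whether the tumour difference itself depends on the App genotype in males, KI minus WT, called 0 of the 10 genes by edgeR, and 1.51% of all tested genes. At an unadjusted p under 0.05 it had 4 of the 10, Apoe, Cd68, Itgax and Ctsd, all lower in KI. Over all tested genes 4023 of 15936 were under that p. The estimates were −1.87 ± 0.61 for Apoe (adjusted p = 0.0867, edgeR), −1.07 ± 0.35 for Cd68 (adjusted p = 0.0821) and −1.34 ± 0.46 for Itgax (adjusted p = 0.0928). DESeq2 called these 3 genes, with 1326 of all tested genes called, and limma voom called 0 of the 10, with 1151 of all called. Leaving out KI male normal replicate 2 led edgeR to call Apoe and Cd68, with 2104 of all genes called, against 240 in the main fit. Without KI male tumour replicate 3 it called 697 of all genes, none of them among the 10. With the GC and length offset, or without WT male normal replicate 3, WT male tumour replicate 1 or 2, KI male normal replicate 1 or 3, or KI male tumour replicate 2, edgeR called 0 of all tested genes in this test. With only the compared groups, or without WT male tumour replicate 3, it called 1 gene, and with a term for libraries 152 to 154 it called 2, all of them higher in KI. A smaller tumour difference in KI males was not established for any of the 10 by edgeR.

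Compared directly, KI male tumours had less Cd68 and Ctsd than WT male tumours, 2 of the 10 genes, with 14.5% of all tested genes called. None of the 10 was called as higher, and their median was −0.44 beside 0.05 for all tested genes. This comparison shares its WT tumour libraries with the first one. Cd68 had 8.51, 6.74 and 7.15 CPM in KI tumours against 12.0, 16.6 and 15.5 CPM in WT tumours, a difference of −0.97 ± 0.25 (adjusted p = 0.0192, edgeR). Ctsd was lower by −0.46 ± 0.14 (adjusted p = 0.0331, edgeR), with all 3 KI tumours below all 3 WT tumours.

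Apoe, Itgax and Tyrobp also did not overlap between KI and WT male tumours, with the KI tumours lower, but did not pass the test. The share of all tested genes without overlap was not counted here. Itgax differed by −0.96 ± 0.32 (adjusted p = 0.0551, edgeR), Apoe by −1.14 ± 0.43 (adjusted p = 0.0823) and Tyrobp by −0.77 ± 0.36 (adjusted p = 0.145). DESeq2 and limma voom each called 4 genes, Apoe and Itgax in addition to Cd68 and Ctsd. Over all genes they called 2972 and 3011, against 2315 by edgeR. The Cd68 call was lost without WT replicate 2 or 3 or KI replicate 2, and the Ctsd call in 5 of 6 such fits. Without KI male tumour replicate 2 neither gene was called, and their differences kept their sign. Marker sums of other cells separated the same libraries, KI above WT: 880.8 to 993.1 against 189.6 to 744.3 CPM for smooth muscle and 2783 to 4115 against 2215 to 2649 CPM for fibroblasts. The sums were 5582 to 6337 against 5102 to 5327 CPM for epithelium and 162.0 to 428.3 against 69.7 to 142.0 CPM for B and plasma cells. The share of counts on Rn45s did not overlap either, at 6.95 to 8.23% in KI against 9.30 to 13.1% in WT male tumours. The part of these differences in the result was not tested.

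In normal colon of males, KI against WT called 0 of the 10 genes by edgeR, with 0 at an unadjusted p under 0.05, and neither DESeq2 nor limma voom called any. Among all tested genes 0.0126% were called, with 532 at an unadjusted p under 0.05. The estimates ran from −0.83 ± 0.85 for Spp1 to 0.73 ± 0.43 for Apoe. Trem2 was the 1 gene of the 10 without overlap, its KI libraries lying between 1.68 and 2.59 CPM and its WT libraries between 0.995 and 1.65 CPM. The share of all tested genes without overlap was not counted, so no difference in Trem2 is read from this.

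In normal colon of females, KI against WT called 4 of the 10 genes as higher in KI, Gpnmb, Trem2, Itgax and Cd68, and none as lower. Among all tested genes 16.0% were called, and the median of the 10 was 0.89 beside 0.02 for all tested genes. The WT female normal libraries are also those compared with WT female tumours above and with WT males below. All 4 called genes had their lowest group mean in these libraries, so the calls of these comparisons are not independent. Gpnmb had 24.5, 15.3 and 9.26 CPM in KI (replicates 1, a and b) against 1.78, 3.48 and 3.87 CPM in WT, a difference of 2.51 ± 0.67 (adjusted p = 0.0186, edgeR). Trem2 had 2.38, 1.57 and 1.15 CPM in KI, each above the 0.929 CPM of the highest WT library, and a difference of 1.22 ± 0.40 (adjusted p = 0.0437, edgeR).

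Cd68 was higher by 0.86 ± 0.25 (adjusted p = 0.0259, edgeR), at 10.4, 11.1 and 9.19 CPM against 5.03, 5.44 and 6.50 CPM. Itgax was higher by 1.10 ± 0.34 (adjusted p = 0.0347, edgeR), at 19.2, 20.0 and 11.8 CPM against 7.23, 6.97 and 9.76 CPM. Apoe, with 148.2, 238.3 and 166.1 CPM against 53.7, 61.0 and 110.4 CPM, did not overlap either but missed the threshold (1.30 ± 0.44, adjusted p = 0.0529, edgeR). Spp1, the gene that rose in the tumours of all 3 backgrounds, had 6, 1 and 1 counts in KI female normal colon and 7, 6 and 3 in WT.

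The female normal calls also rested on single libraries. Without WT female normal replicate 1 or 2, or without KI female normal replicate 1, 0 of the 10 genes were called, and without KI replicate a Gpnmb alone was. With a term for GC content and transcript length, Cd68 and Gpnmb were called and Itgax and Trem2 were not. The WT female normal libraries had the lowest Rn45s shares, 2.84 to 3.18% against 4.85 to 5.96% in KI female normal colon, and their endothelial markers summed to 40.6 to 67.2 CPM against 99.7 to 108.2 CPM. Smooth muscle markers summed to 1971 to 4572 CPM in WT against 6826 to 9639 CPM in KI, fibroblast markers to 1139 to 1379 against 2182 to 2756 CPM, and B and plasma cell markers to 341.2 to 656.9 against 106.9 to 192.6 CPM. None of these ranges overlapped, and the part of these differences in the result was not tested.

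The test of whether the genotype difference in normal colon depends on sex called 0 of the 10 genes by edgeR, beside 2.54% of all tested genes. At an unadjusted p under 0.05 it had 2 of the 10, Gpnmb (1.99 ± 0.88, adjusted p = 0.251, edgeR) and Cd68 (0.75 ± 0.35, adjusted p = 0.266). Over all tested genes 2828 of 15936 were under that p, a share near that of the 10. DESeq2 called 0 of the 10 and 920 of all genes, and limma voom called Cd68 and 1093 of all genes. A genotype difference particular to females was thus not established for these genes.

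**Figure D3:**
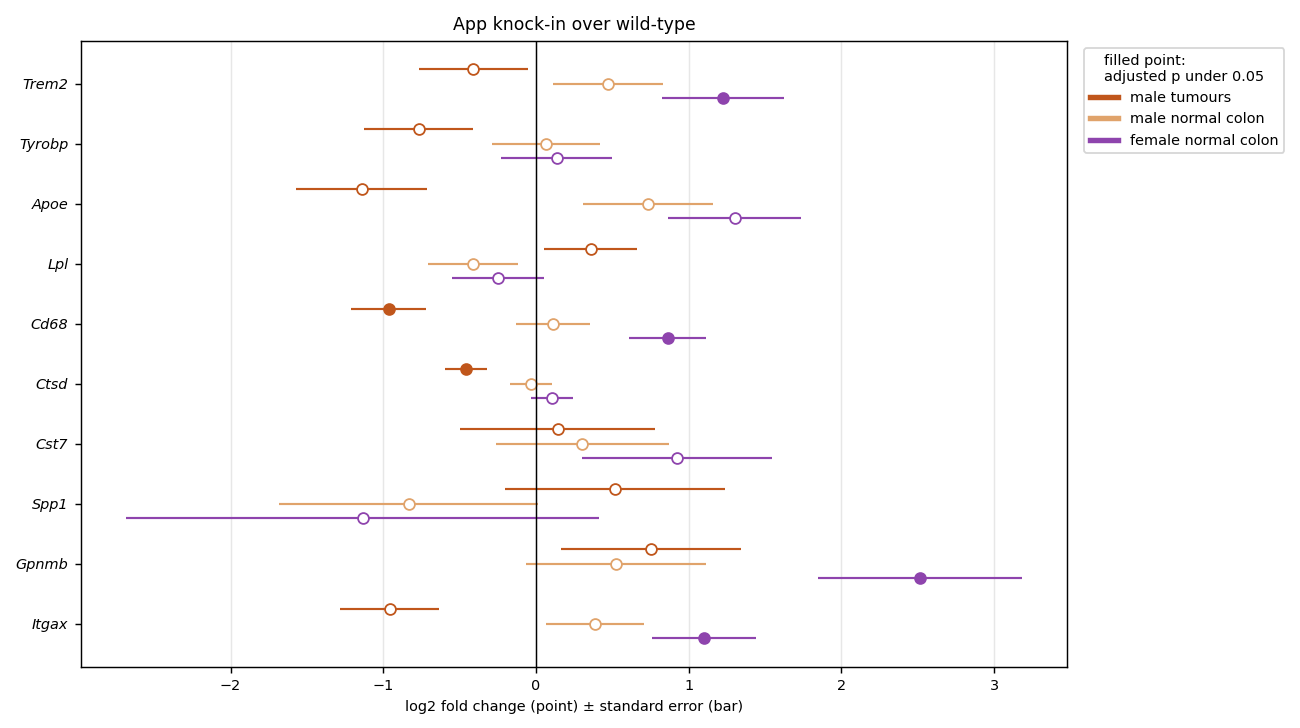
Difference of KI over WT for the 10 genes (log2 fold change, point; standard error, bar) in male tumours, male normal colon and female normal colon, 3 libraries against 3 each; filled points have an adjusted p under 0.05. Cd68 and Ctsd are lower in KI male tumours, and Trem2, Cd68, Gpnmb and Itgax are higher in KI female normal colon.

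Between the sexes in WT normal colon, 2 of the 10 genes were lower in females, Apoe and Itgax, and all 10 estimates were below 0, from −0.21 for Tyrobp to −2.75 for Spp1, beside 15.9% of all tested genes called, a share near that of the 10. Apoe differed by −1.32 ± 0.44 (adjusted p = 0.0494, edgeR) and Itgax by −1.16 ± 0.34 (adjusted p = 0.0271). The Apoe groups overlapped, and those of Itgax, Trem2, Ctsd and Gpnmb did not. The WT female normal libraries here are the same as in the comparisons with WT female tumours and with KI females. Leaving out either WT female normal replicate 1 or 2, or WT male normal replicate 1 or 2, left 0 genes called, and leaving out male replicate 3 gave 4. Females also had lower Rn45s shares (2.84 to 3.18% against 4.90 to 8.26%) and fibroblast sums (1139 to 1379 against 2384 to 2679 CPM), and all 4 endothelial markers were called as lower. The part of these in the result was not tested.

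In WT tumours, females against males called 0 of the 10 by edgeR, beside 0.860% of all tested genes. There were 5 of the 10 at an unadjusted p under 0.05, and 3350 of all 15936 tested genes. DESeq2 called 0 of the 10 and 835 of all genes, and limma voom called 4 and 2916. Spp1 was above all male tumours in each female tumour (2.05 ± 0.74, adjusted p = 0.132, edgeR), while Apoe, Cd68, Ctsd, Gpnmb and Itgax were each below all male tumours. How many of all tested genes were separated in this way was not counted. Whether the tumour difference depends on sex in WT mice was tested directly, with 0 of the 10 called by edgeR and 1.12% of all tested genes. Spp1 was the 1 gene at an unadjusted p under 0.05, with 4.81 ± 1.29 more in females (adjusted p = 0.0792, edgeR). Over all tested genes 2198 were under that p. DESeq2 called Spp1, with 577 of all genes called, and limma voom called 0 of the 10, with 1445 of all genes called.

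In KI normal colon, females against males called 0 of the 10 by edgeR, DESeq2 and limma voom. EdgeR called 0.584% of all tested genes, which is 93, while DESeq2 called 583 and limma voom 666. The 1 gene of the 10 at an unadjusted p under 0.05 was Spp1, with 6, 1 and 1 counts in females and 16, 15 and 34 in males. Over all tested genes 2433 were under that p.

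Across the 7 groups, mean Trem2 ran from 0.735 ± 0.186 CPM (SD, n = 3) in WT female normal colon, through WT male normal, KI female normal, KI male normal, KI male tumour and WT female tumour, to 2.96 ± 0.44 CPM in WT male tumours. Only the lowest group was separated from its neighbour in this order, and every other neighbouring pair overlapped. Apoe had the same ends, 75.0 ± 30.8 CPM in WT female normal colon and 422.8 ± 104.1 CPM in WT male tumours, and 4 of the other 5 groups had means within 184.2 to 196.2 CPM. Spp1 had a different order, from 0.182 ± 0.153 CPM in KI female normal colon to 56.1 ± 20.3 CPM in WT female tumours, with the means of all 3 tumour groups above those of all 4 normal groups.

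The genes of the set were not one unit. Over the 21 libraries the 45 pairs had a median Pearson r of 0.39 for log2 CPM, and 9 pairs were below 0. Since group differences enter that value, r was also taken on deviations from the group means, where the median was 0.37. Trem2, Tyrobp, Apoe, Cd68 and Itgax, grouped by hand and not by a clustering, had 10 pairs between 0.48 and 0.76 in those deviations. The highest were Trem2 with Tyrobp at 0.76, Apoe with Itgax at 0.75 and Apoe with Cd68 at 0.74. Some pairs with other genes lay in that range too, such as Tyrobp with Ctsd at 0.70, Apoe with Lpl at 0.63 and Itgax with Cst7 at 0.62. Gpnmb was below 0 with Apoe (−0.33) and Trem2 (−0.21), and Cst7 was below 0 with Spp1 (−0.48). These are descriptions, and libraries share depth and tissue makeup across genes.

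**Figure D4:**
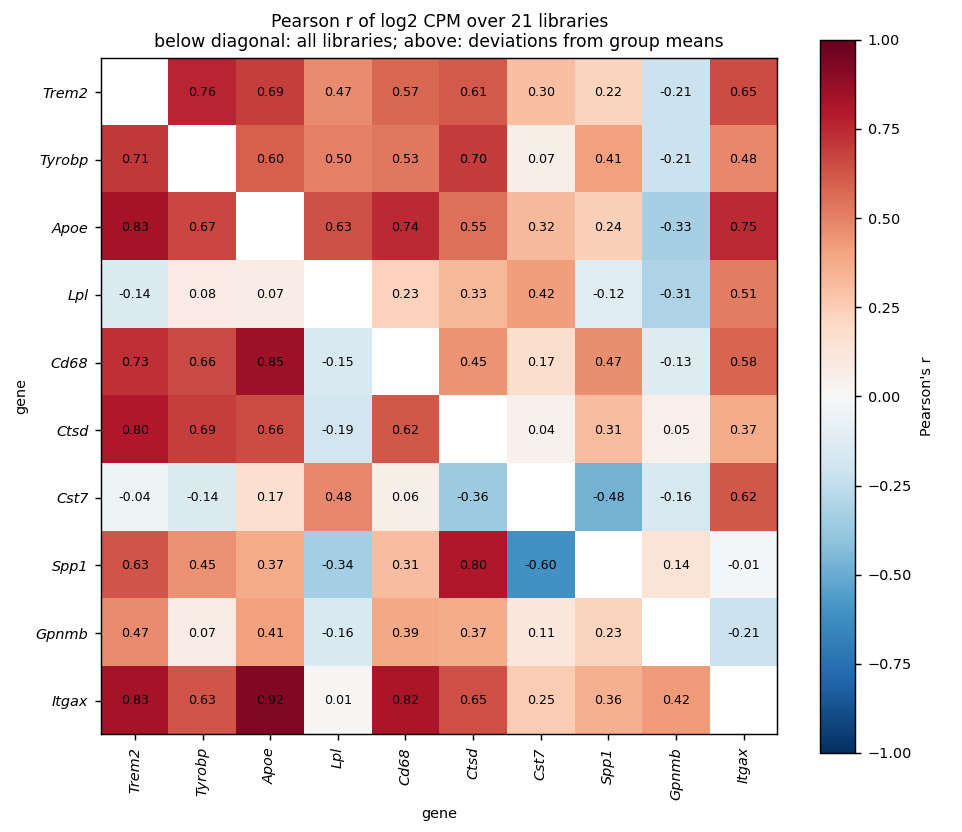
Pearson's r between the 10 genes over the 21 libraries on log2 CPM, for all libraries (below the diagonal) and for deviations from the 7 group means (above it); colour runs from −1 to 1. Trem2, Tyrobp, Apoe, Cd68 and Itgax share high values above the diagonal, while Gpnmb is near or below 0 with most genes.

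Among 11765 other genes with a mean of at least 50 counts, those most like Trem2 over the 21 libraries were Cxcl16 (r = 0.91), Ifnar2 (0.91), Nxpe3 (0.91), Col23a1 (0.90) and Tmem229b (0.90). Those most like Apoe were Arrb2 (0.94), Man2a2 (0.94), Ttc7b (0.92), Myo1f (0.92) and Cyth4 (0.92). Spp1 had another set, Timp1 (0.97), Col9a3 (0.97), Mmp10 (0.96), Il11 (0.96) and Mmp13 (0.96). Cxcl16 encodes a chemokine, and Timp1, Mmp10 and Mmp13 encode a metalloproteinase inhibitor and secreted metalloproteinases. The mean of the 10 genes, each standardised, was most like Cd300a (0.94), Plekhm3 (0.93), Arrb2 (0.93), Mpeg1 (0.92) and Man2a2 (0.91).

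Other genes of the plaque-associated microglial programme, 20 of them, moved in both directions. In WT males 3 rose and 3 fell, in WT females 6 rose and 5 fell, and in KI males 3 rose and 1 fell. Over all tested genes 35.7, 49.1 and 20.4% were called in these comparisons, shares near those of the 20 genes. The same shares apply to each list below, where a count of called genes is a description only. Clec7a, a receptor for fungal glucans, rose by 1.83 in WT males and 2.30 in WT females, with 0.66 in KI males, which did not pass the test. Lilrb4, an inhibitory receptor that may share reads with a close paralog, rose by 1.52 and 1.73, with 0.44 in KI males. Csf1, the growth factor of macrophages, rose by 1.07 in WT males and 2.14 in WT females, and was lower in KI than in WT male tumours by −1.08. Its tumour difference was lower in KI than in WT males by −1.15 (adjusted p = 0.041, edgeR), a call lost in each of the fits named above in which edgeR called 0, 1 or 2 genes. Ccl6, a chemokine, fell in both WT comparisons (−1.17 in males and −1.34 in females). Igf1 rose in WT females (1.79) and KI males (1.29).

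Downstream of Trem2 and Tyrobp, 14 signalling and shedding genes were tested. In WT males 3 rose and 0 fell, in WT females 4 rose and 1 fell, and in KI males 1 rose and 3 fell. Plcg2, a phospholipase that acts after the adaptor, rose by 0.93 in WT males and 1.45 in WT females and had −0.52 in KI males, which did not pass. The difference between the male genotypes for Plcg2 did pass, at −1.45 (adjusted p = 0.041, edgeR), and was likewise lost in the fits in which edgeR called 0, 1 or 2 genes. Adam10, a protease that sheds Trem2 from the cell surface, rose in all 3 tumour comparisons, by 0.55, 0.66 and 0.77 in WT males, WT females and KI males. Hcst (−1.72), Btk (−1.33) and Inpp5d (−0.87) fell in KI males. Among the other receptors of the Trem family, Trem1 rose in WT males (2.28) and WT females (4.23), while Trem3 and Treml1 were too low to test.

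Of 19 partners of Apoe and Lpl, 2 rose and 4 fell in WT males, 5 rose and 4 fell in WT females, and 2 rose and 4 fell in KI males. Abca1, the transporter that loads cholesterol onto apolipoproteins, rose by 1.13 in WT males and 1.93 in WT females, with 0.51 in KI males, which did not pass. Lrp8, a receptor for Apoe, rose in all 3 (1.70, 2.28 and 1.12 in WT males, WT females and KI males). The receptors Lrp1 and Sorl1 and the sterol-sensing factor Nr1h3 fell in all 3. Cd36, a fatty acid transporter, fell in WT males (−1.46) and WT females (−2.29).

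Of 20 other lysosomal genes and their regulators, 6 rose and 4 fell in WT males, 7 rose and 7 fell in WT females, and 2 rose and 5 fell in KI males. Grn, the precursor of progranulin, followed Ctsd in rising in WT males (0.92) and WT females (1.12), and it was lower in KI than in WT male tumours by −0.80 and higher in KI than in WT female normal colon by 0.84. Atp6v0d2, a proton pump subunit, rose by 1.90 and 2.34 in the WT sexes and had 0.04 in KI males. Lamp2 and Gusb rose in all 3 tumour comparisons, and Ctss and Npc2 fell in all 3, so that lysosomal genes did not move as a unit.

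Spp1 and Itgax act with integrins and Cd44, and of 8 such partners 2 rose and 0 fell in WT males, 6 rose and 1 fell in WT females, and 3 rose and 1 fell in KI males. Cd44 rose by 1.26, 2.29 and 1.42 and Itgav by 0.79, 1.39 and 1.14 in WT males, WT females and KI males. Itgb2, which pairs with Itgax on the cell surface, rose in WT females (1.38), with 0.80 in WT males, which did not pass.

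General markers of macrophages and monocytes moved in both directions. Of 17 such genes, 3 rose and 3 fell in WT males, 3 rose and 4 fell in WT females, and 0 passed in KI males. The shares called over all tested genes were 35.7, 49.1 and 20.4%. Their summed level was 344.4 to 513.4 CPM in WT male normal colon and 393.4 to 563.4 CPM in tumours, 340.4 to 470.0 and 398.2 to 458.8 CPM in WT females, and 395.8 to 531.4 and 304.9 to 413.9 CPM in KI males. The ranges overlapped in each of these comparisons, and no marker of the list was at 0 throughout a group. Cd163, a scavenger receptor of resident macrophages, fell in WT males (−3.67) and WT females (−3.96), and it was higher in KI than in WT male tumours by 3.04. Mertk and Mrc1, other resident markers, also fell in both WT comparisons, while Spi1, which encodes PU.1, rose in WT males (1.07) and WT females (2.08). C1qa and C1qc, complement genes of macrophages, were lower in KI than in WT male tumours, by −1.41 and −1.21.

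Markers of other cells changed with the tumours. All 7 smooth muscle markers fell in the 3 tumour comparisons, from sums of 2836 to 9653 CPM in WT male normal colon to 189.6 to 744.3 CPM in tumours, from 1971 to 4572 to 173.2 to 209.7 CPM in WT females, and from 4521 to 8225 to 880.8 to 993.1 CPM in KI males. Neutrophil markers rose in 6 of 6 in WT females (sums of 3.001 to 7.53 CPM in normal colon, 55.9 to 166.5 in tumours), and 2 of 6 passed in WT males (1.89 to 24.9 and 33.1 to 65.2 CPM). In KI males 0 of 6 passed, although the sums did not overlap either (9.18 to 21.3 and 34.4 to 54.1 CPM). Of 7 epithelial markers, 1 rose and 6 fell in each WT comparison. Of 6 fat cell markers, Adipoq, Plin1 and Lep were too low to test and were at 0 in 16, 15 and 16 of the 21 libraries. Of the 3 tested, Fabp4 fell in WT males (−1.42), and the list summed to 10.5 to 24.8 CPM in WT male normal colon and 2.30 to 7.57 CPM in tumours, without overlap. In KI males and WT females 0 of the 3 passed, and the sums overlapped. The part of these changes in the differences of the 10 genes was not tested.

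**Figure D5:**
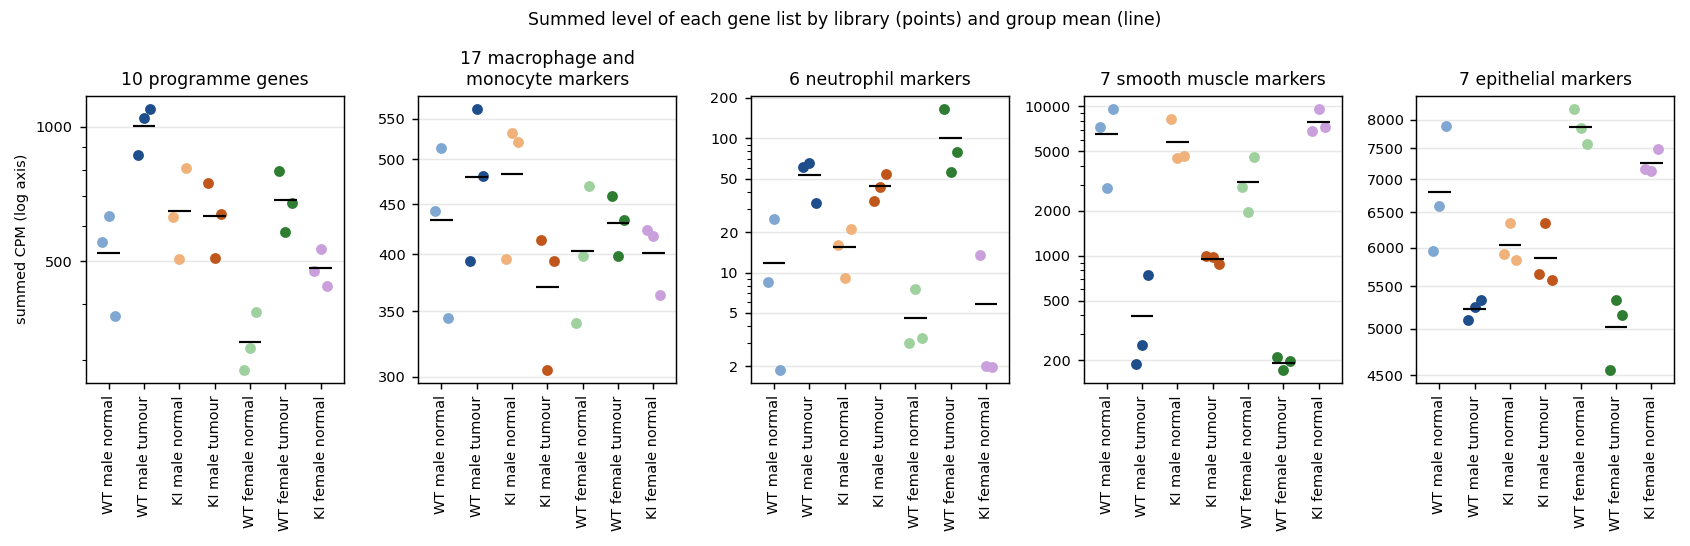
Summed CPM (log axes) of the 10 programme genes and of markers for macrophages and monocytes, neutrophils, smooth muscle and epithelium in the 21 libraries (points, 3 per group) with group means (lines). The 10 programme genes sum to 864.5 to 1098 CPM in WT male tumours, above every other group, while the macrophage sums overlap between normal colon and tumour. Apoe and Ctsd, with means of 422.8 and 475.7 CPM there, make up most of that sum (mean 1002.6 CPM), so it says little about the rarer genes.

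In the authors' deposited table of DESeq2 comparisons, 6 of the 10 genes had an adjusted p under 0.05 in WT male tumours against normal colon, all 6 higher. For KI against WT it listed 4 in male tumours, 0 of them higher, 0 in male normal colon and 5 in female normal colon, all 5 higher in KI. It listed 2 in KI male tumours against normal colon, Ctsd and Spp1, and 4 in WT normal colon, lower in females than in males, where edgeR called 1 and 2. The share of all genes under that threshold in the authors' table was not counted, so whether these counts are high for the 10 genes cannot be said.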

How the data were processed

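The authors' deposited table holds raw read counts per gene for the 21 libraries. The submitters' processing notes name Trimmomatic, HISAT2, featureCounts, DESeq2 and the build mm10, and versions, annotation and strand setting are not given in the sources used here. A second table holds the authors' own DESeq2 results as log2 fold changes and adjusted p-values, per the file headers. Ctsd shares 808 and Spp1 309 exon bases with another annotated gene on the same strand (GENCODE M21), whose reads cannot be told apart there, so these values are less certain. Random-primed, ribosome-depleted libraries also count unspliced RNA.

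Counts were tested with edgeR 4.0.16 (limma 3.58.1, R 4.3.3): TMM scaling, filterByExpr by group, robust quasi-likelihood F test, 1 coefficient per group, all 21 libraries, two-sided, with Benjamini-Hochberg adjustment over 15936 genes. The median biological coefficient of variation was 23%. CPM use TMM library sizes. On simulated counts for the WT male contrast with 200 changed genes among 15936, 60% of changes of 1 and 79% of changes of 2 on the log2 scale were recovered. There were 8 false calls. Far fewer genes differed there than the 5697 called in the data, and the changed genes were drawn at all levels. The recovery of genes as rare as Trem2 and Cst7 was therefore not measured. The 10 genes and all lists were chosen with earlier results of these data known. Every one of the 10 is named, and up to 4 called genes per list and comparison, by size of change; others are named after their values were seen. In WT males, tumour against normal, same-numbered libraries deviated together (r between 0.17 and 0.21). No shared animal is stated, so a pairing of the samples is not established. Adding the replicate block there left 6 genes called, as without it. Alternatives were DESeq2 1.42.0, limma voom, other scalings and filters, GC and length offsets, a term for libraries numbered 152 to 154, the compared groups alone, and leaving out each library.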

Additional observations from a re-analysis of the deposited data

How the results depend on the processing

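Under 32 other settings, no difference called for one of the 10 genes changed sign. Of the counts of called genes, 168 values stayed within 1.5 times the main count and 48 did not. For tumour against normal colon, WT males had 6 genes called, 3 with no low-count filter, 3 with only the compared groups and 1 to 4 with a library left out. WT females had 6, 3 with a term for libraries 152 to 154, and 4 to 6 with a library left out. KI males had 1, and 2 with library totals, DESeq2, the replicate block, the term for libraries 152 to 154, the GC and length offset, or that offset with the block; leaving out any library gave 1. KI against WT had 2 in male tumours, 4 with DESeq2 or voom, 1 with only the compared groups, the GC and length offset or that offset with the block, and 0 to 3 with a library left out. In female normal colon it had 4, 2 with the GC and length offset, and 0 to 5 with a library left out. Females against males had 2 in WT normal colon, 1 with no filter, the replicate block or the term for libraries 152 to 154, 4 with DESeq2, 7 with voom, 0 with the GC and length offset with or without the block, and 0 to 4 with a library left out. In WT tumours it had 0, 4 with voom and 2 with only the compared groups. Calls over all tested genes shifted too. In WT normal colon females against males had 2534 in the main fit, 3187 with DESeq2 and 5317 with voom. In WT tumours that comparison had 137 in the main fit, 2916 with voom and 1166 with only the compared groups. The tests of differences between differences had 0: for genotype in males 3 with DESeq2 and 0 to 2 with a library left out, for sex in WT tumours 1 with DESeq2 and 0 to 1 with a library left out, and for sex in normal colon 1 with voom. KI against WT in male normal colon and females against males in KI normal colon had 0 under every setting run. The cause of these shifts was not tested.

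Apart from WT males, tumour against normal, in no comparison between a pair of groups did every same-numbered pair deviate together (single pairs ran from −0.30 to 0.46). In the test of sex in WT tumours, the mean r of same-numbered libraries was above 0 throughout but small, 0.0021 to 0.0254. Outside WT males, tumour against normal, the replicate block is therefore taken to join samples by number only. No block could be fitted for comparisons with KI female normal colon, where only replicate 1 has a number of its own. Requiring a mean of at least 50 counts removes Trem2 and Cst7 from the test, so their depth limits what was detectable. With library totals the median of all genes shifted by 0.15 in WT females, tumour against normal, and by 0.10 in female normal colon, KI against WT.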

Other observations

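A set of genes used to mark microglia, to which the 10 genes are often related, was also read in the colon. Of 6 such genes, 0 rose and 1 fell in tumours of WT males (Slc2a5) and of KI males (Siglech), 2 rose and 0 fell in WT females, and 3 were higher in KI than in WT female normal colon. Over all tested genes 35.7, 20.4, 49.1 and 16.0% were called in these comparisons, in that order. Slc2a5 was also higher in KI than in WT male tumours, by 2.64. P2ry12 and Gpr34 passed in none of these. The list's sums overlapped between tumour and normal colon in males. Tmem119 and Sall1, which mark microglia in the brain and are also used by other cells outside it, rose in WT female tumours by 1.55 and 2.65 on the log2 scale and were higher in KI than in WT female normal colon by 1.37 and 1.97. Both were lower in WT female than in WT male normal colon, by −1.91 and −2.24. Endothelial genes had the same order in normal colon: Cdh5 was lower in WT females than in WT males by −1.66 and higher in KI than in WT females by 1.499, and Cldn5 by −2.05 and 1.74 (all adjusted p under 0.05, edgeR). These comparisons share the WT female normal libraries.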
